A study of Rattus norvegicus with 7 samples.

Results

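The VEGF family measured here comprised 10 genes: the ligands Vegfa, Vegfb, Vegfc, Vegfd and Pgf, the receptor tyrosine kinases Kdr, Flt1 and Flt4, and the co-receptors Nrp1 and Nrp2. They were chosen by name, as every probe set of the array annotated with the symbol of 1 of these genes alone. This gave 17 probe sets out of 31042, or 10 genes out of 14217 that had a probe set of their own. The arrays measured total RNA of right lungs from Dahl salt-sensitive rats, an inbred strain. The HSU_Sor group (4 arrays) came from rats in hypoxia (inspired oxygen about 9.5%) given SU5416 and sorafenib. The HSU group (3 arrays) came from rats in the same hypoxia given SU5416 without sorafenib. Both groups therefore carried hypoxia and SU5416, and the lungs were taken at 3.5 weeks. The study design also names normoxic rats and rats under hypoxia only, which were not analysed here, so no value below is set against an untreated lung. Doses and the age of the rats are not given in the sources used here, and the labels do not say whether each array is a different rat, so the p-values measure the spread between arrays.

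VEGF ligands bind receptor tyrosine kinases on endothelial cells. Vegfa acts through Kdr, the main signalling receptor of blood vessel endothelium, and also binds Flt1, which holds ligand tightly but signals weakly. Vegfb and Pgf bind Flt1, while Vegfc and Vegfd act mainly through Flt4, the receptor of lymphatic endothelium. Nrp1 and Nrp2 bind both VEGF ligands and semaphorins and act beside the kinases. In the lung, alveolar epithelial cells make much of the Vegfa and the dense capillary bed carries the receptors. SU5416 inhibits the kinase activity of VEGF receptors, and its combination with hypoxia is used in rats to model pulmonary hypertension. Sorafenib inhibits RAF kinases and several receptor tyrosine kinases, among them the VEGF and PDGF receptors. The comparison below asks whether transcripts of the family differed when sorafenib was added.

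The promoters of Vegfa, Kdr and Nrp1 are shown because the brighter Vegfa probe set and those of Kdr and Nrp1 gave some of the highest correlations within the family over the 7 arrays, none of which passed an adjusted p of 0.05. The 250 bases before the RefSeq start of each are shown from assembly GRCr8. They were searched on both strands for 3 kinds of letters, set in capitals. GGAA is the core bound by ETS factors, and GGGCGG is the GC box bound by SP factors. ACGTG is a form of the core bound by hypoxia-inducible factors. The first of 2 windows listed for Vegfa is printed.
Vegfa (chr9:22452604-22452853, + strand): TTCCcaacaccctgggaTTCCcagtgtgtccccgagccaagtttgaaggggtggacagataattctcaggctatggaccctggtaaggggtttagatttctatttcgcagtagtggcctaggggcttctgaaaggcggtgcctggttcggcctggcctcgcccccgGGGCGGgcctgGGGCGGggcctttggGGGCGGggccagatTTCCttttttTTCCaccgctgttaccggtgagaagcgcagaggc
Kdr (chr14:32571813-32572062, + strand): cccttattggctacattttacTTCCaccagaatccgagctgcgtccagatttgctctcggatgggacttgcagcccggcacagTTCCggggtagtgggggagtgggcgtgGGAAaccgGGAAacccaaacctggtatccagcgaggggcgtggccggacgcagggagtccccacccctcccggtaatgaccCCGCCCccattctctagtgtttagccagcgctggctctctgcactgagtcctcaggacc
Nrp1 (chr19:73256307-73256556, + strand): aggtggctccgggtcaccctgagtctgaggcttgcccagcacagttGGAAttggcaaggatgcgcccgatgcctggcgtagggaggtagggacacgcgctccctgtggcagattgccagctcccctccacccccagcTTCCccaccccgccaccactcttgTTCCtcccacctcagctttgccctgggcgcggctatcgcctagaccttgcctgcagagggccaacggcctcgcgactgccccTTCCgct
Matches that shared bases were each counted. The printed Vegfa window held 3 GC boxes and 4 ETS cores, the Kdr window 1 GC box and 4 ETS cores, and the Nrp1 window 0 GC boxes and 4 ETS cores. All 10 genes had a window, 11 in all. A GC box was in 7 of these 11, against 30.5% of all 33469 windows in the table. An ETS core was in 93.2% of all windows, and 55.5% held 3 or more. The letters ACGTG were in 0 of the 11, against 16.6% of all windows, which says only that they are not within these 250 bases. GCGTG, another form of that core, was neither searched nor set in capitals. The count does not cover that form, which the printed Kdr window holds.

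The deposited values were on a log2 scale and already normalized between arrays. Array medians lay between 3.59 and 3.68, and correlations between arrays were 0.984 to 0.992 over the 15521 probe sets whose mean passed a filter at the median of all probe sets (3.64). Precision is limited by the number of arrays. Lung markers were high in both groups: the surfactant gene Sftpc averaged 15.46 ± 0.06 in HSU_Sor (SD, n = 4) and 15.47 ± 0.02 in HSU (SD, n = 3). Some arrays stood apart in other cell types. The mean of 6 cardiac muscle markers deviated from its 7-array mean by 1.62 and 0.67 on HSU 1b and 2b, and by -0.60 to -0.30 on the other arrays. The mean of 4 erythroid markers deviated by -1.70 and -1.74 on HSU_Sor 3 and 4, and by 0.36 to 1.24 on the other arrays. Every HSU title carries the letter b after its replicate number and no HSU_Sor title does, so any batch which that letter may mark cannot be told apart from sorafenib.

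None of the 10 genes differed between HSU_Sor and HSU lungs beyond the spread between arrays. For Vegfb and Pgf, which had only probe sets below the filter, this is no measurement of a steady level. Nor is it for Vegfd, which was above the filter but ranged over only 0.07 across the arrays. On the log2 scale, the 12 probe sets above the filter differed by -0.27 to 0.12, with a median of 0.00, 6 higher and 6 lower in HSU_Sor. With limma, 0 of these 12 passed an adjusted p of 0.05 over all 15521 probe sets (adjusted p from 0.874 to 0.997). The background was 0% called, the lowest adjusted p of any probe set being 0.15. At an unadjusted p below 0.05, 0 of the 12 were called where 6.00% of all probe sets tested were, and 0 of the 12 had groups that did not overlap where 5.26% did. A count of 0 among 12 is near these backgrounds. Over all 17 probe sets, 0 had groups that did not overlap, against 2.77% of all 31042. In 7 of the 12, Vegfd among them, the 95% interval of the difference lay within a 1.5-fold change in either direction.

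**Figure D1:**
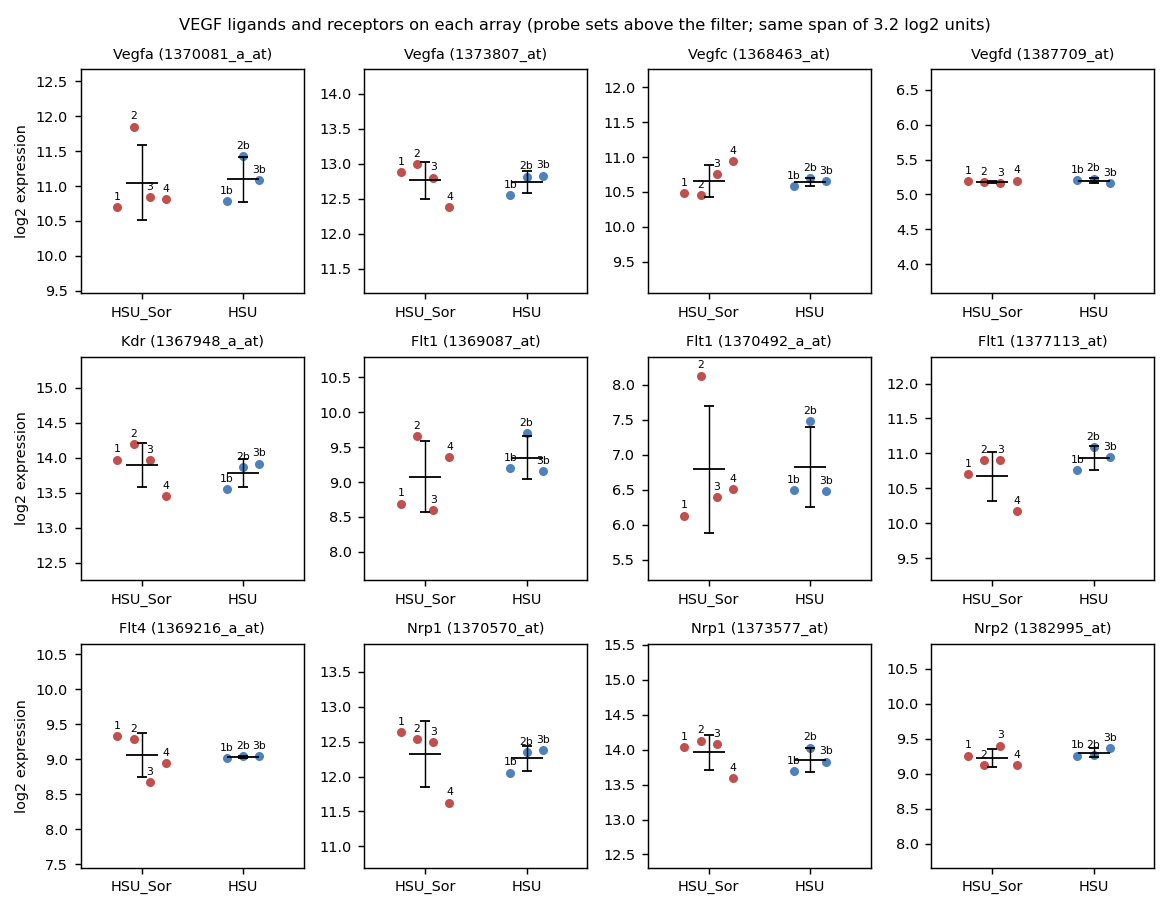
Log2 expression (y axis) of the 12 probe sets of VEGF ligands and receptors above the filter, with HSU_Sor arrays left and HSU arrays right in each panel. Points are single arrays marked with their replicate number, and bars are the mean and SD. Every panel spans the same 3.2 log2 units, and the groups overlap in all 12.

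Among the ligands, Vegfa, the main driver of blood vessel growth, was measured by a pair of probe sets. The brighter, 1373807_at, was at 12.88, 12.99, 12.80 and 12.38 on HSU_Sor 1, 2, 3 and 4, against 12.56, 12.82 and 12.83 on HSU 1b, 2b and 3b. The HSU_Sor arrays lay on both sides of the HSU arrays, with HSU_Sor 4 lowest and HSU_Sor 2 highest of the 7. The log2 difference was 0.03 ± 0.16 (SE, 95% interval -0.36 to 0.41), with an adjusted p of 0.985 (limma).

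The other Vegfa probe set, 1370081_a_at, was at 10.70, 11.85, 10.84 and 10.81 on HSU_Sor 1 to 4, against 10.78, 11.43 and 11.08 on HSU 1b to 3b. HSU_Sor 2 stood above the remaining HSU_Sor arrays, and HSU 2b was the highest of its group. The difference was -0.05 ± 0.31 (SE, adjusted p = 0.987, limma). Its interval, -0.80 to 0.71, was wider than that of the brighter probe set, so a change of up to 1.63-fold higher or 1.74-fold lower could not be told from none by this probe set.

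Vegfc, a ligand of Flt4 that drives lymphatic growth, was at 10.49, 10.46, 10.76 and 10.94 on HSU_Sor 1 to 4, against 10.58, 10.70 and 10.65 on HSU 1b to 3b. HSU_Sor 1 and 2 lay below all HSU arrays and HSU_Sor 3 and 4 above them. The spread was 0.23 in HSU_Sor (SD, n = 4) and 0.06 in HSU (SD, n = 3), and the difference was 0.02 ± 0.13 (SE, adjusted p = 0.99, limma). Vegfd, the other lymphatic ligand, ranged over 0.07 across the 7 arrays, at 5.17 to 5.20 in HSU_Sor and 5.16 to 5.23 in HSU (difference -0.02 ± 0.04, SE). Though above the filter, it varied about as little as the Pgf probe sets below it (a range of 0.05 each), and HSU 2b was the highest array in all 3, so its interval, 1 of the 7 within 1.5-fold, is no measurement of a steady level.

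Vegfb, a ligand of Flt1 linked to heart and fatty acid uptake, and Pgf, the placental growth factor, had only probe sets below the filter. The probe set of Vegfb was at 2.16 to 2.22 in HSU_Sor and 2.20 to 2.31 in HSU. The pair for Pgf was at 2.18 to 2.30 in HSU_Sor and 2.19 to 2.31 in HSU. These values lay near or under the lower quartile of the arrays (2.37 to 2.42), where differences are compressed. The lack of a difference there is therefore no measurement of a steady level. In the limma fit over all 31042 probe sets, 0 of the 5 family probe sets below the filter passed an unadjusted p of 0.05 (p from 0.115 to 0.86), where 3.51% of all probe sets did.

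Of the receptor kinases, Kdr was at 13.98, 14.20, 13.97 and 13.45 on HSU_Sor 1 to 4 by probe set 1367948_a_at, against 13.55, 13.87 and 13.92 on HSU 1b to 3b. HSU_Sor 1, 2 and 3 lay above every HSU array and HSU_Sor 4 below every one, so the groups overlapped through 1 array. The difference was 0.12 ± 0.19 (SE, 95% interval -0.33 to 0.57, adjusted p = 0.918, limma), 0.27 without HSU_Sor replicate 4 and 0.01 without HSU replicate 1b. A second Kdr probe set, 1397868_at, was below the filter at 3.07 to 3.23 in HSU_Sor and 3.11 to 3.15 in HSU.

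Flt1, which binds Vegfa, Vegfb and Pgf, had 3 probe sets above the filter. The one with the highest mean, 1377113_at, was at 10.71, 10.91, 10.91 and 10.17 on HSU_Sor 1 to 4, against 10.76, 11.10 and 10.95 on HSU 1b to 3b. HSU_Sor 4 was again the lowest array, and the difference was -0.26 ± 0.20 (SE, adjusted p = 0.874, limma) and -0.09 without HSU_Sor replicate 4. Its interval, -0.74 to 0.22, excluded neither no change nor a level 1.67-fold lower.

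Probe set 1369087_at of Flt1 was at 8.69, 9.66, 8.60 and 9.36 on HSU_Sor 1 to 4, against 9.20, 9.70 and 9.15 on HSU 1b to 3b. HSU_Sor 1 and 3 were below all HSU arrays, while HSU_Sor 2 and 4 lay among them (difference -0.27 ± 0.30, SE, adjusted p = 0.898, limma). Probe set 1370492_a_at was at 6.13, 8.13, 6.40 and 6.51 on HSU_Sor 1 to 4, against 6.50, 7.48 and 6.49 on HSU 1b to 3b. Arrays HSU_Sor 2 and HSU 2b were high on this probe set and the other 5 lay within a narrow band, the same pair of arrays that was high for Vegfa 1370081_a_at. Its difference of -0.03 ± 0.53 (SE, adjusted p = 0.997, limma) had the widest interval of the family, from 2.48-fold lower to 2.38-fold higher.

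Flt4 was at 9.33, 9.29, 8.67 and 8.95 on HSU_Sor 1 to 4, against 9.02, 9.05 and 9.04 on HSU 1b to 3b. The SD was 0.31 in HSU_Sor (n = 4) and 0.02 in HSU (n = 3), with HSU_Sor 1 and 2 above and HSU_Sor 3 and 4 below all HSU arrays. The difference was 0.02 ± 0.17 (SE, adjusted p = 0.988, limma). Without HSU_Sor 3 and 4 it was 0.28 (unadjusted p = 0.00313, adjusted p = 0.349, limma), a fit that rests on 2 HSU_Sor arrays. The mean of 6 lymphatic endothelial markers was low on the same arrays, and deviated by 0.18, 0.14, -0.33 and -0.43 on HSU_Sor 1 to 4, against 0.15, 0.00 and 0.27 on HSU 1b to 3b. That was not particular to lymphatic markers. The erythroid mean deviated by 1.24, 0.39, -1.70 and -1.74 on HSU_Sor 1 to 4, and the lung capillary subtype mean by 0.17, 0.42, -0.02 and -0.40. Not every list split so, and the endothelial mean was highest on HSU_Sor 3 (0.17). The lymphatic markers did not all share the pattern of their mean. Lyve1, Ccl21 and Mmrn1 were lower on HSU_Sor 3 and 4 than on HSU_Sor 1 and 2. Among HSU_Sor arrays Reln was lowest on HSU_Sor 2 (4.46) and Pdpn on HSU_Sor 1 (13.95), while Prox1 lay below the filter. Of the 6, 2 were lower and 0 higher at an unadjusted p below 0.05, with groups that did not overlap (Mmrn1 by -1.06 ± 0.25 and Reln by -0.45 ± 0.12, SE). By that rule 3.22% of all genes were lower and 2.02% higher, a background not matched for brightness. Groups did not overlap in 581 of all 14217 genes. Lyve1 differed by 0.73 ± 0.41 and did not pass. Their part in the Flt4 values was not tested. In whole lung RNA, fewer cells of a type and less RNA per cell cannot be told apart.

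The co-receptor Nrp1 was at 14.03, 14.13, 14.08 and 13.60 on HSU_Sor 1 to 4 by probe set 1373577_at, against 13.69, 14.03 and 13.83 on HSU 1b to 3b (difference 0.11 ± 0.15, SE, adjusted p = 0.911, limma). By probe set 1370570_at it was at 12.63, 12.54, 12.50 and 11.63 on HSU_Sor 1 to 4, against 12.06, 12.35 and 12.38 on HSU 1b to 3b. On both probe sets HSU_Sor 4 was the lowest array and HSU 1b the next lowest. The second probe set differed by 0.06 ± 0.26 (SE, adjusted p = 0.977, limma), and by 0.29 without HSU_Sor replicate 4 (unadjusted p = 0.0341, adjusted p = 0.815, limma).

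Nrp2, the co-receptor tied to lymphatic endothelium, was at 9.26, 9.12, 9.40 and 9.12 on HSU_Sor 1 to 4, against 9.26, 9.27 and 9.37 on HSU 1b to 3b. It varied little, and its interval of -0.27 to 0.13 allowed a level at most 1.21-fold lower or 1.09-fold higher (difference -0.07 ± 0.08, SE, adjusted p = 0.902, limma). A dim second Nrp2 probe set lay at 2.13 to 2.17 in HSU_Sor and 2.14 to 2.18 in HSU.

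**Figure D2:**
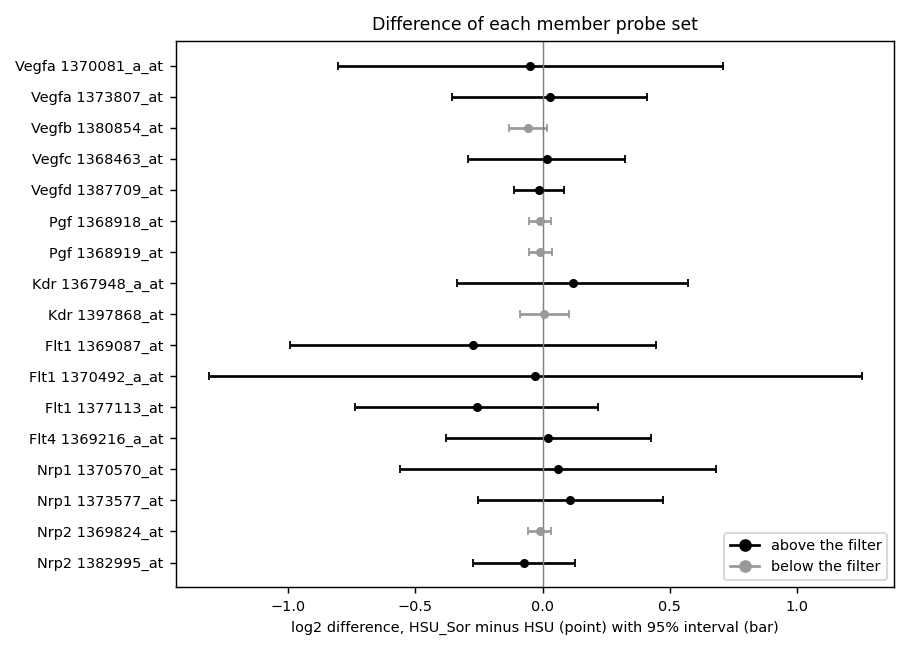
Log2 difference, HSU_Sor minus HSU (x axis, point), with its 95% interval from limma (bar) for the 17 probe sets (y axis), black above the filter and grey below it. All 17 intervals include 0. The widest, of Flt1 1370492_a_at, runs from -1.31 to 1.25, and the grey ones are narrow because values near the floor hardly vary.

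Variation across arrays was described by correlation. Among the 12 probe sets above the filter, 66 pairs were correlated over the 7 arrays, both groups together, since neither group alone reaches 6 arrays. Of these, 43 were positive, and 0 had an adjusted p below 0.05 over the 66 pairs. An exact permutation test gave 9 pairs an unadjusted p below 0.05, and the lowest adjusted p was 0.0505 for Pearson's r and 0.148 for Spearman's rho.

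Vegfa 1373807_at and Kdr 1367948_a_at gave an r of 0.98 and a rho of 0.89 (n = 7, exact permutation p = 0.00179 and 0.0123, adjusted p = 0.0505 and 0.203). Without the 2 arrays farthest from the median of Vegfa, HSU_Sor 4 and HSU 1b, r was 0.92. Kdr and Nrp1 1373577_at gave an r of 0.93 and a rho of 0.93 (n = 7, exact permutation p = 0.00238 and 0.00675, adjusted p = 0.0505 and 0.148), and r was 0.60 without HSU_Sor 4 and HSU 1b. Kdr and Nrp1 1370570_at had an r of 0.91 and a rho of 0.96 (n = 7, exact permutation p = 0.00417 and 0.00278, adjusted p = 0.0505 and 0.148), and 0.55 without the same pair. Vegfa 1373807_at gave an r of 0.95 with Nrp1 1370570_at and 0.91 with 1373577_at (n = 7, exact permutation p = 0.00536 and 0.00417, adjusted p = 0.0505 for both), with a rho of 0.86 and 0.75 (exact permutation p = 0.0238 and 0.0663, adjusted p = 0.262 and 0.4). Without HSU_Sor 4 and HSU 1b these r values were 0.50 and 0.47. Pearson's r of Nrp1 with Kdr and Vegfa was thus lower without these arrays. Leaving out extreme arrays narrows the range, which by itself can lower r, and rho was not computed without them. The other Vegfa probe set, 1370081_a_at, had an r of 0.60 and a rho of 0.29 with Kdr (n = 7, exact permutation p = 0.145 and 0.556, adjusted p = 0.504 and 0.898), and r was 0.20 without HSU_Sor 2 and HSU 2b. Its r with Nrp1 was 0.32 by 1370570_at and 0.52 by 1373577_at.

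HSU_Sor 4 and HSU 1b were also weakly alike beyond the family. Over the 15521 probe sets above the filter, their deviations from their own group means correlated at 0.24, the highest of the 12 pairs of an HSU_Sor and an HSU array, the others lying between -0.17 and 0.18. What these arrays share was not tested.

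The highest r of Vegfa 1370081_a_at within the family was that with Flt1 1370492_a_at (r = 0.97, rho = 0.71, n = 7, exact permutation p = 0.00337 and 0.0881, adjusted p = 0.0505 and 0.485). Without HSU_Sor 2 and HSU 2b the r was 0.55. Probe sets of 1 gene were compared too. The pair for Vegfa had an r of 0.57 and a rho of 0.39 (n = 7, exact permutation p = 0.161 and 0.396, adjusted p = 0.532 and 0.791), and r was 0.20 without HSU_Sor 2 and HSU 2b. Of the 3 Flt1 pairs, 1369087_at and 1370492_a_at had an r of 0.81 and a rho of 0.93 (n = 7, exact permutation p = 0.0343 and 0.00675, adjusted p = 0.283 and 0.148), and r was 0.89 without HSU_Sor 3 and HSU_Sor 1. Flt1 1370492_a_at and 1377113_at had an r of 0.40 and a rho of 0.27 (n = 7, exact permutation p = 0.354 and 0.558, adjusted p = 0.667 and 0.898), and r was -0.16 without HSU_Sor 2 and HSU 2b. Flt1 1369087_at and 1377113_at had an r of 0.10 and a rho of 0.27 (n = 7, exact permutation p = 0.859 and 0.558, adjusted p = 0.953 and 0.898), and r was 0.32 without HSU_Sor 3 and HSU_Sor 1. The pair for Nrp1 had an r of 0.90 and a rho of 0.86 (n = 7, exact permutation p = 0.00536 and 0.0238, adjusted p = 0.0505 and 0.262), and r was 0.50 without HSU_Sor 4 and HSU 1b. Which transcripts each probe set reads was not examined here.

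**Figure D3:**
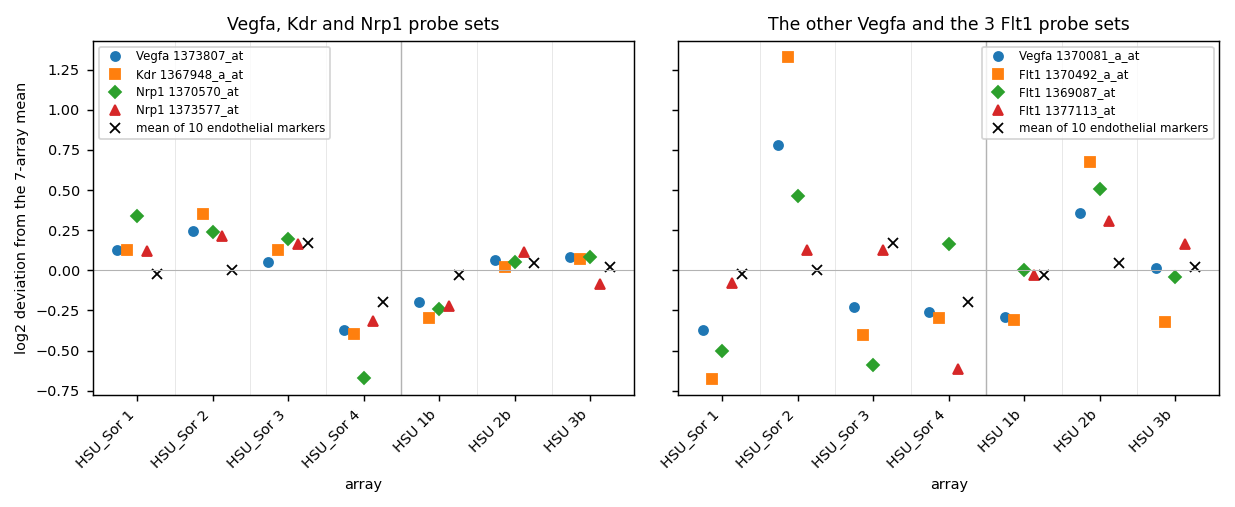
Log2 deviation from the 7-array mean (y axis) on each array (x axis, HSU_Sor left of the vertical line) for Vegfa 1373807_at, Kdr and the pair of Nrp1 probe sets (left) and for Vegfa 1370081_a_at and the 3 Flt1 probe sets (right). Crosses are the mean of 10 endothelial markers. The left set is low on HSU_Sor 4 and HSU 1b, while Vegfa 1370081_a_at and Flt1 1370492_a_at are high on HSU_Sor 2 and HSU 2b.

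The mean of 10 endothelial markers, among them Pecam1, Tek, Tie1 and Vwf, had a range of 12.21 to 12.58 in HSU_Sor and 12.38 to 12.45 in HSU. It deviated by -0.02, 0.00, 0.17 and -0.19 on HSU_Sor 1 to 4, against -0.03, 0.04 and 0.02 on HSU 1b to 3b, so HSU_Sor 4, low for Kdr, Nrp1 and Flt1 1377113_at, was the lowest array here too. That was not particular to endothelial markers. HSU_Sor 4 was also the lowest array for the means of alveolar type I (-0.18), fibroblast (-0.17) and airway secretory markers (-0.59), among others. It was not the lowest for type II (-0.02) or smooth muscle markers (-0.23). The r of the endothelial mean with Flt1 1377113_at was 0.82 and its rho 0.81 (n = 7, exact permutation p = 0.0452 and 0.0349, adjusted p = 0.197 and 0.4 over 12 probe sets), and r was 0.96 without HSU_Sor 4 and HSU_Sor 3. Nrp1 1373577_at had an r of 0.72 and a rho of 0.61 (n = 7, exact permutation p = 0.0468 and 0.167, adjusted p = 0.197 and 0.667), and r was 0.31 without the same pair. Nrp2 1382995_at had an r of 0.75 and a rho of 0.74 (n = 7, exact permutation p = 0.0492 and 0.0667, adjusted p = 0.197 and 0.4), and r was 0.27 without them. With Kdr, r was 0.63 and rho 0.43 (n = 7, exact permutation p = 0.111 and 0.354, adjusted p = 0.251 and 0.746), and r was 0.28 without HSU_Sor 4 and HSU_Sor 3. Of the 10 markers, 0 were lower and 1 was higher in HSU_Sor at an unadjusted p below 0.05. Over all genes, 3.22% were lower and 2.02% higher by this rule, a background not matched for brightness. The 1 was Vwf, the clotting factor carrier, at 12.29, 12.25, 12.25 and 12.00 on HSU_Sor 1 to 4, against 11.77, 11.72 and 11.87 on HSU 1b to 3b (adjusted p = 0.91, limma). The mean of 6 lung capillary subtype markers deviated by 0.17, 0.42, -0.02 and -0.40 on HSU_Sor 1 to 4, against -0.24, 0.27 and -0.20 on HSU 1b to 3b. It was highest on HSU_Sor 2 and HSU 2b, the arrays high for Vegfa 1370081_a_at and Flt1 1370492_a_at, and its part in those values was not tested.

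The genes whose probe sets followed each member most closely, by Pearson's r over the 7 arrays among 12179 candidate probe sets, were given as a description. Vegfa and Kdr had the same pair, the exoribonuclease Xrn2 (r = 0.998 with Vegfa and 0.984 with Kdr) and Prickle2 (0.994 and 0.975). For Nrp1 they were Sugp1 (0.99) and the linker histone H1f10 (0.98), and for Flt1 the RNA helicase Ddx39b and Rybp (both 0.98). Vegfc was closest to Spen and Phtf1 (both 0.98), Flt4 to Mkrn1 (0.98) and Cdt1 (0.97), Nrp2 to Galnt2 (0.998) and Zcchc8 (0.991), and Vegfd to Pard3 and Rptor (both 0.96). With so few arrays and so many candidates, values this high have little weight.

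Genes that act around the receptors were looked at in 5 lists, 86 genes in all, of which 76 had a probe set of their own. With limma over all 31042 probe sets, 0 of the 76 passed an adjusted p of 0.05. At an unadjusted p below 0.05, 6 were lower and 2 higher in HSU_Sor, while 68 were neither. Over all 14217 genes, 3.22% were lower and 2.02% higher by the same rule. That background was not matched for brightness: 67 of the 76 lay above the filter, against 9299 of all 14217 genes. Calls were more frequent there, at 6.00% of probe sets above the filter against 3.51% of all, each in its own fit. Groups did not overlap in 7 of the 76, against 581 of all 14217 genes. The median difference was -0.01 over the 76 genes and -0.01 over all genes.

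Of 16 co-receptors and modulators, 3 were lower and 0 higher (median -0.03). The heparan sulphate proteoglycan Gpc1, which can hold VEGF at the cell surface, was at 4.42, 4.49, 4.81 and 4.86 on HSU_Sor 1 to 4, against 5.45, 5.05 and 5.32 on HSU 1b to 3b (difference -0.63 ± 0.15, SE). Sdc2, another such proteoglycan, was at 10.91, 10.89, 10.97 and 10.69 on HSU_Sor 1 to 4, against 11.09, 11.28 and 11.16 on HSU 1b to 3b. In both genes every HSU_Sor array was below every HSU array. Adamts1, a protease that can bind VEGF, differed by -0.50 ± 0.20 (SE) with overlapping groups, and the adaptor Gipc1 by -0.17 ± 0.08.

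Of 16 endothelial transcripts known to be induced by VEGF, 2 were lower and 1 higher (median -0.01). Esm1, a proteoglycan secreted by endothelial tip cells, was at 11.39, 11.00, 10.35 and 10.75 on HSU_Sor 1 to 4, against 11.85, 11.85 and 12.61 on HSU 1b to 3b. All 4 HSU_Sor arrays lay below the HSU arrays, a 2.35-fold lower level (unadjusted p = 0.00659, adjusted p = 0.91, limma). F3, the tissue factor that starts coagulation, differed by -0.45 ± 0.11 (SE), and Plau, the urokinase, by 0.48 ± 0.14, both with groups that did not overlap. Icam1, the leukocyte adhesion molecule, differed by 0.16 ± 0.07 and did not pass, though its groups did not overlap either. Groups did not overlap in 4 of the 16. The list thus had members in both directions.

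Of 22 signal transduction genes, 0 were lower and 1 higher (median -0.02). Nfatc1, a transcription factor activated through calcineurin, was at 7.35, 7.20, 7.44 and 7.30 on HSU_Sor 1 to 4, against 7.07, 6.98 and 7.11 on HSU 1b to 3b (difference 0.27 ± 0.06, SE). The kinases Map2k1 (-0.16 ± 0.08), Akt1 (-0.13 ± 0.07) and Ptk2 (-0.15 ± 0.09) did not pass. Of 12 semaphorins and plexins, which share the neuropilins with VEGF, 1 was lower and 0 higher (median -0.01): Sema3f, a ligand of Nrp2, differed by -0.37 ± 0.12 (SE) with overlapping groups. The next were Plxna2 (0.30 ± 0.13), Sema3c (-0.27 ± 0.14) and Plxna3 (-0.02 ± 0.02). Plxna3 lay below the filter at 2.35 to 2.41, so its small difference is no measurement of a steady level. Of 10 regulators of Vegfa transcription, 0 were lower or higher (median -0.02). The hypoxia-inducible factor subunits Hif1a and Epas1 differed by -0.10 ± 0.06 and 0.03 ± 0.04 (SE), Sp1 by 0.16 ± 0.08 and Vhl, which marks those subunits for degradation, by -0.10 ± 0.12.

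**Figure D4:**
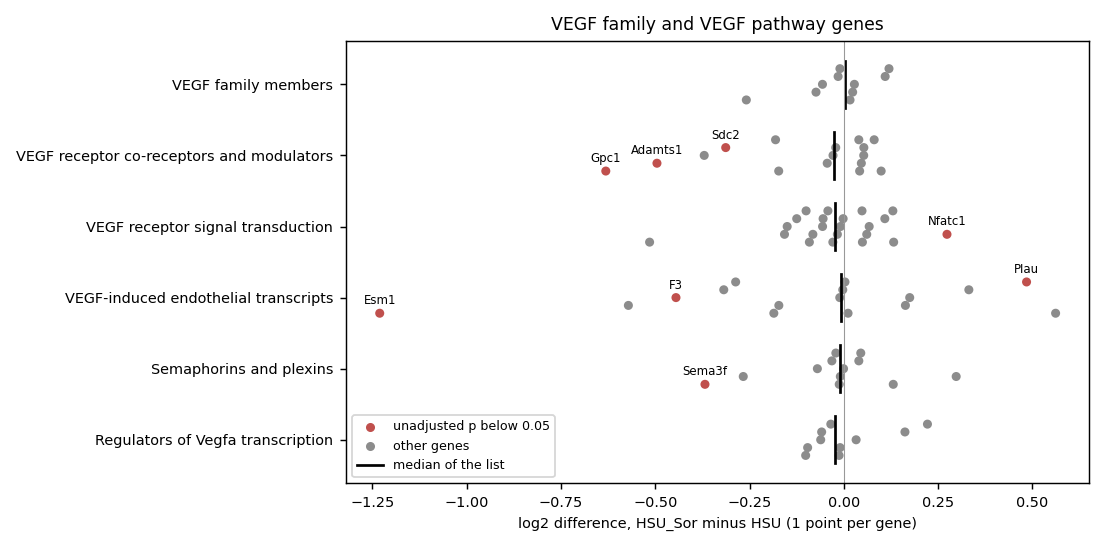
Log2 difference, HSU_Sor minus HSU (x axis), of the 10 family genes (top) and of the genes of 5 lists around the VEGF receptors (y axis), 1 point per gene. Red points have an unadjusted p below 0.05 in limma, grey points do not, and black lines are list medians. The family has 0 red points, and the lists have 8 in all, 6 lower and 2 higher.

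Markers of other cell types are given beside these genes as counts at an unadjusted p below 0.05, against 3.22% lower and 2.02% higher over all genes. As in the lists above, most of these markers lay above the filter, so this background was not matched for brightness. Groups did not overlap in 581 of all 14217 genes. The mean of 6 pericyte markers, cells that wrap capillaries, had a range of 6.46 to 6.63 in HSU_Sor and 7.08 to 7.24 in HSU, and 2 of the 6 were lower. These 2 were Cspg4 (-1.20 ± 0.33, SE) and Rgs5 (-1.43 ± 0.41). Pdgfrb (-0.95 ± 0.44) did not pass, though its groups did not overlap, and Abcc9 (0.09 ± 0.08) did not pass. Notch3 lay below the filter, and Kcnj8 was at 4.26 on every HSU array, so neither informs the mean. The mean of 7 smooth muscle markers had a range of 11.26 to 11.84 in HSU_Sor and 12.21 to 12.34 in HSU, with 4 of 7 lower. Fibroblast markers had 4 of 6 lower (12.46 to 12.51 in HSU_Sor and 12.73 to 12.91 in HSU). Those 4 were the collagen chains Col1a1, Col1a2 and Col3a1, and Lum, while Pdgfra and Dcn did not pass. Macrophage markers had 3 of 6 lower (9.78 to 10.61 in HSU_Sor and 10.52 to 11.49 in HSU). These 3 were the chains of the complement protein C1q, C1qa (-1.70 ± 0.45, SE), C1qb (-2.69 ± 0.87) and C1qc (-1.68 ± 0.32). The other macrophage markers, Cd68 (0.39 ± 0.52), Csf1r (0.17 ± 0.11) and Mrc1 (0.01 ± 0.35), did not pass. In none of these lists did a gene pass an adjusted p of 0.05 (limma). Their part in the values of Gpc1, Sdc2, Esm1 and F3 was not tested. Markers of alveolar type I and type II cells had ranges of 13.47 to 13.77 and 14.16 to 14.26 in HSU_Sor, against 13.60 to 13.67 and 14.15 to 14.34 in HSU. Of 5 type I markers, 0 were lower and 1 was higher, the water channel Aqp5 (0.29 ± 0.06, SE, groups not overlapping), and of 7 type II markers 0 were lower or higher. Of 3 airway secretory markers, 2 were lower in HSU_Sor (12.18 to 13.01 in HSU_Sor and 12.94 to 13.29 in HSU), and of 4 mesothelial markers, 0 were lower or higher (5.85 to 6.60 in HSU_Sor and 5.86 to 6.32 in HSU).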

How the data were processed

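Lung RNA of 7 samples was hybridised to Affymetrix rat arrays. The values the authors deposited are log2 expression, 1 per probe set and array, and had been normalized between arrays. RMA and GCRMA appear in the submitters' processing notes, and neither the version nor which one applies here is stated in the sources used. The 57 control probe sets were left out. Of the other 31042, 20826 had 1 gene symbol, 436 several and 9780 none. Symbols were checked against the RefSeq table of GRCr8, which changed 0.

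HSU_Sor minus HSU was tested two-sided by limma 3.58.1 (functions lmFit and eBayes) under R 4.3.3, with no covariate and Benjamini-Hochberg adjustment (threshold 0.05), on the 15521 probe sets with a mean above the median. Probe sets below it, and all list genes, come from a fit over all 31042. The probe set with the highest mean stands for a gene. The study design names SAM, which was not run. The fit was tested on simulated data.

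The members and lists were chosen with earlier results of these data known. Named genes were all members, up to 4 genes per pathway list with the smallest p, and 2 most similar genes per member. Marker genes outside this rule were named after their values were seen. Marker lists were endothelial, lymphatic, capillary subtype, alveolar type I and II, airway secretory, smooth muscle, pericyte, fibroblast, macrophage, cardiac, erythroid and mesothelial genes. Alternatives were other filters, quantile normalization, median centring, an intensity trend, array weights, probe set means, a replicate block, an endothelial covariate and arrays left out.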

Additional observations from a re-analysis of the deposited data

Results flagged for a closer look

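Of 17 probe sets looked at in the 4 HSU_Sor arrays, 2 had 1 array far from the other 3 by Dixon's test, which flags about 1 in 20 groups by chance. Vegfa 1370081_a_at was at 11.85 on HSU_Sor 2, with the next array at 10.84. Nrp1 1370570_at was at 11.63 on HSU_Sor 4, with the next array at 12.50. No explanation for either was tested.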

How the results depend on the processing

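In none of the 18 other settings did a member probe set pass the adjusted threshold (lowest adjusted p 0.349, limma), while 7 of 292 recomputed differences had an unadjusted p below 0.05. The count over all probe sets, 0, became 6 with the filter at the 75th percentile, which tests fewer probe sets, 6 without HSU replicate 3b (0 without any other single array) and 10 without HSU 1b and 2b together, where the lone HSU array is assumed to vary like the others. For the arrays left out, the cause was not tested. The differences are small and 45 of the 292 changed sign, 22 of them without 1 array. With 1 array left out, they ranged from -0.31 to 0.12 for Vegfa 1370081_a_at, -0.061 to 0.16 for Vegfa 1373807_at, -0.077 to 0.084 for Vegfc, -0.018 to 0.00044 for Pgf 1368919_at, -0.025 to 0.028 for Kdr 1397868_at, -0.48 to 0.30 for Flt1 1370492_a_at, -0.068 to 0.15 for Flt4 and -0.043 to 0.29 for Nrp1 1370570_at. Without HSU 1b and 2b, values of the opposite sign were -0.068 for Vegfa 1373807_at, 0.022 for Vegfd, 0.0042 and 0.0079 for Pgf, -0.019 for Kdr 1367948_a_at, 0.31 for Flt1 1370492_a_at, -0.060 for Nrp1 1370570_at and 0.0064 for Nrp2 1369824_at. Without HSU_Sor 3 and 4 they were 0.18 for Vegfa 1370081_a_at, -0.17 for Vegfc and 0.31 for Flt1 1370492_a_at. Array weights gave 0.0035, -0.0101 and 0.027 for the same 3. Median centring gave 0.00059 for Vegfd, 0.0054 and 0.0063 for Pgf and 0.0050 for Nrp2 1369824_at, and quantile normalization 0.000068 for Pgf 1368919_at. The mean of probe sets per gene gave -0.0100 for Vegfa 1373807_at. For these the cause was not tested. Same-numbered arrays of both groups had correlated deviations of -0.06 to 0.18, and 1 of 3 HSU arrays correlated best with its own number, so the numbers were not taken as pairs. With the replicate block, which drops HSU_Sor 4 for want of a partner, 0 probe sets passed. The sign turned for Vegfa 1370081_a_at (0.032), Vegfc (-0.077) and Flt1 1370492_a_at (0.066). These differences are the same as without HSU_Sor replicate 4 and no block, so they are no separate dependence. With the endothelial marker mean as a covariate, no member changed sign and Kdr differed by 0.16.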
